A study of Mus musculus with 6 samples.

Results

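The Krüppel-like factors are transcription factors that bind GC-rich and CACCC-type DNA elements through zinc fingers at the end of the protein, and members differ in whether they recruit activators or repressors. Several are induced within minutes by mechanical, hormonal or growth factor signals, and in the lung they are known from endothelium (Klf2), maturing airspace epithelium (Klf5) and hormone-responsive cells of several types (Klf9, Klf15). Described here are 10 Krüppel-like factor genes, Klf2, Klf3, Klf4, Klf5, Klf6, Klf7, Klf9, Klf10, Klf13 and Klf15, which the array measured with 34 of its 45037 probe sets (groups of probes for one transcript). They are the genes with these symbols in the platform annotation. Because the set was chosen by measured values of these arrays, several genes being known to be lower in one group, the difference between the groups is given for them as a description, without a p-value.

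Lungs of 6 mouse fetuses were taken at E18.5, near the end of gestation, and total RNA of each was hybridised to 1 Affymetrix array. All 6 fetuses carried the floxed Nfib genotype Nfibf/f; Nfib encodes a nuclear factor I protein, which regulates transcription. The labels of 3 name no Cre and are called control-labelled here, and those of the other 3 add Dermo1-Cre and are called Cre-labelled. Dermo1-Cre drives recombination from the Dermo1 (Twist2) locus in mesenchymal cells, so other lung cells are meant to keep their floxed alleles. Which cells recombined was not measured here. The study asked how mesenchymal Nfib bears on proliferation and epithelial differentiation. The sources used here do not say whether the replicates were littermates.

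The arrays were alike in scale, with median log2 signals of 4.8 to 5.03, and their signals over all probe sets correlated at 0.94 to 0.95 within a group and at 0.93 to 0.95 between groups. Surfactant genes that define lung tissue were bright (Sftpb at 11.50 in the control-labelled lungs). The brightest Nfib probe set did not fall in the Cre-labelled lungs. It read 10.24, 10.32 and 10.17 in the control-labelled and 11.24, 11.16 and 11.49 in the Cre-labelled lungs (limma adjusted p = 0.0049). Another, with a mean of 9.50, overlapped between the groups (-0.11 ± 0.13 SE, limma adjusted p = 0.71). The remaining tested Nfib probe sets were called higher. Where the Nfib probes lie relative to the deleted part is not stated here, so they do not check the labels. Each direction below rests on the labels as deposited. Cardiac muscle transcripts differed widely within groups: their mean log2 signal on the single arrays was 9.58, 8.64 and 7.53 in the control-labelled and 6.11, 7.01 and 8.10 in the Cre-labelled lungs.

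Most of the Krüppel-like factor genes were dimmer in the Cre-labelled lungs. Taken by its brightest probe set, each of the 10 genes had a lower mean there, and for 8 of them every Cre-labelled array lay below every control-labelled array; over the whole array 16.5% of the genes did so. The median log2 difference, Cre-labelled minus control-labelled, was -0.49 over the 10 genes and -0.01 over all 12826 genes tested. A limma fit over all 27022 probe sets bright enough to test, with a Benjamini-Hochberg adjusted p of 0.05 as the threshold, called 4 of the 10 genes lower, Klf2, Klf4, Klf5 and Klf15, and none higher. It called 3.04% of all genes lower and 1.92% higher. None of the 10 was higher at an unadjusted p of 0.05 either, in a set chosen with several genes known to be lower.

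**Figure D1:**
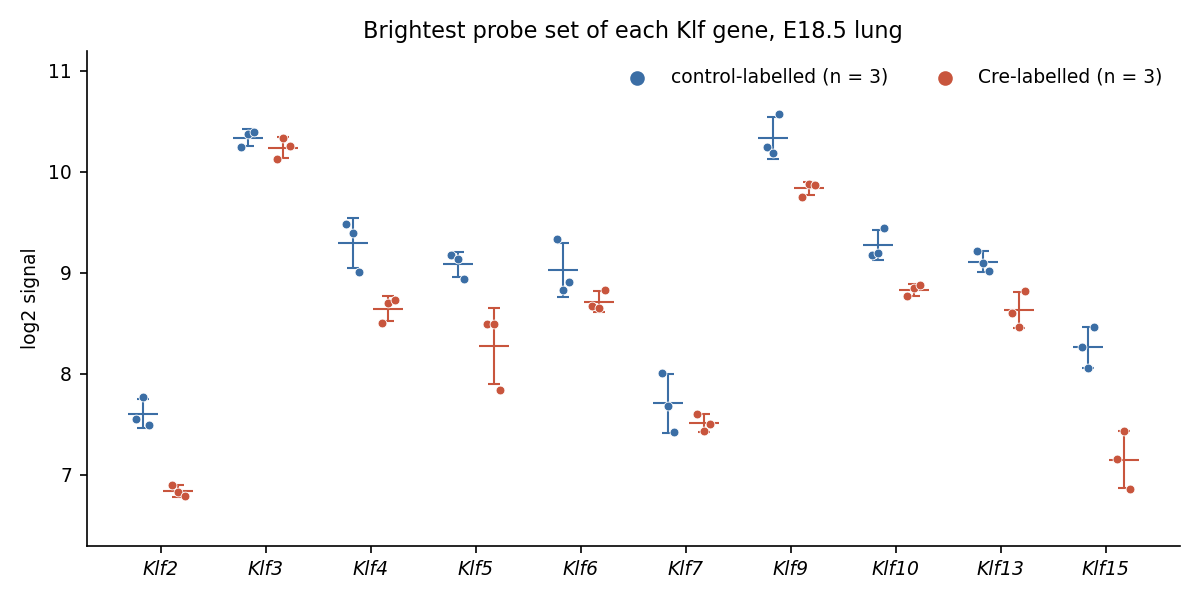
Log2 signal of the brightest probe set of each of the 10 genes (vertical axis) on the 3 control-labelled and 3 Cre-labelled arrays (points), with the group mean and SD (bars). The groups are apart for 8 genes and overlap for Klf3 and Klf7; levels of different genes cannot be compared, since each probe set has its own brightness.

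Of the 34 probe sets, 30 reached the level required for the test and 4, of Klf3, Klf5, Klf9 and Klf13, did not. Among the 30, 28 had a lower mean in the Cre-labelled lungs, 11 were called lower and none higher, where the fit called 2.16% of all probe sets lower and 1.41% higher. In 18 of the 30 all Cre-labelled arrays lay below all control-labelled ones, as in 12.8% of all tested probe sets. The 11 belonged to 6 genes, the 4 above and Klf6 and Klf9, whose brightest probe sets were not among those called. The 4 dim probe sets had group means between 0.80 and 3.37, and for 2 of them, of Klf3 and Klf9, the mean was higher in the Cre-labelled lungs. Leaving out 1 array changed the count of genes called. Without control-labelled replicate 1 or 2 only Klf15 was called, and without replicate 3 of that group Klf2, Klf4 and Klf15. Without Cre-labelled replicate 1 or 2 the genes called were Klf2 and Klf15, and without Cre-labelled replicate 3 Klf2, Klf5, Klf13 and Klf15. Calls over all tested probe sets fell too, from 963 with all arrays to between 308 and 499 in these 6 fits.

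**Figure D2:**
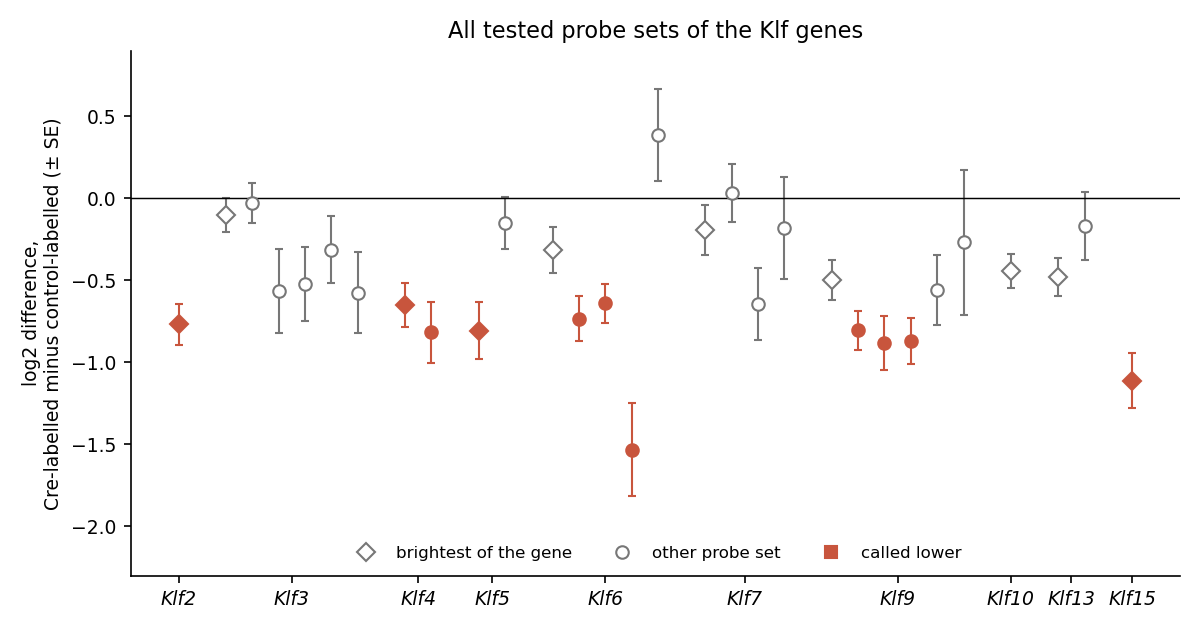
Log2 difference, Cre-labelled minus control-labelled, with its SE for the 30 tested probe sets (vertical axis), grouped by gene and ordered by brightness; diamonds are the brightest of a gene and filled red symbols were called lower. Klf2, Klf4 and Klf15 were called in each of their probe sets, Klf5, Klf6 and Klf9 in part of them, and Klf3, Klf7, Klf10 and Klf13 in none.

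The stretches of 250 bases before the transcription start are shown for 5 of these 6 genes, because members that were lower together can be compared for elements they share. The sequences are from RefSeq (GRCm38.p6), in which 8 of the 10 genes were matched, all but Klf5 and Klf10. They lie at chr8:72318812-72319061 (plus strand), chr4:55532476-55532725 (minus strand), chr13:5861239-5861488 (plus strand), chr19:23140976-23141225 (plus strand) and chr6:90462326-90462575 (plus strand), and are printed 5′ to 3′ along the gene. Capitals mark, on either strand, the nuclear factor I core site TTGGC, the E-box CACGTG, the cyclic AMP element core TGACG and the MEF2 motif.
Klf2: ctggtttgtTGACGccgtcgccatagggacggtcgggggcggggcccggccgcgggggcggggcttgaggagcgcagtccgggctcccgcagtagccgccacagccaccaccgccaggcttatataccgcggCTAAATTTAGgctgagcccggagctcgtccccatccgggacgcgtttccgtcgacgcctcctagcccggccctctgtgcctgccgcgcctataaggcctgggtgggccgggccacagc
Klf4: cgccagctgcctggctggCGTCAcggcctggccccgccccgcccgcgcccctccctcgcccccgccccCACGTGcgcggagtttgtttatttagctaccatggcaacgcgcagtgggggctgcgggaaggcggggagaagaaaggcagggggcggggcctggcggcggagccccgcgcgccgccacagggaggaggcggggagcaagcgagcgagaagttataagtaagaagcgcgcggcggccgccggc
Klf6: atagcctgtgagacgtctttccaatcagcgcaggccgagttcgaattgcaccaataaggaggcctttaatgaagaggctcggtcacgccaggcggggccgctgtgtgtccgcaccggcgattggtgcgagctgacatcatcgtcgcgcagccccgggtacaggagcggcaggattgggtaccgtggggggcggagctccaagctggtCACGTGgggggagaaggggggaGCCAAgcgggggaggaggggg
Klf9: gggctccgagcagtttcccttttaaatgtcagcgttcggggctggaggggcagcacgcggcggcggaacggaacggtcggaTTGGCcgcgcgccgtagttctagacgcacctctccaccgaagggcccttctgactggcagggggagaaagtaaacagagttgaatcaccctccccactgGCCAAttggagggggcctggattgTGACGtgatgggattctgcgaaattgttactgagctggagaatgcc
Klf15: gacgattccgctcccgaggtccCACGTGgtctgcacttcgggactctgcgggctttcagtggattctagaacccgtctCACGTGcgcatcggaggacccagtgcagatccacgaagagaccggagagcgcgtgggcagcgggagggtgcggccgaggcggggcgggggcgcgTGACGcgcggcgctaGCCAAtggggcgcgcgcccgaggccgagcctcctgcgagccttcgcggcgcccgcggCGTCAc

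Each motif was searched on both strands of these stretches and of the same stretch of 32841 promoter windows in the table. The core site TTGGC, which can overlap the CCAAT box (CCAAT), occurred in 4 of the 8 matched members, Klf6, Klf9, Klf13 and Klf15, and in 41.5% of all windows. The paired nuclear factor I site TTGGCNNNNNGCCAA and the glucocorticoid response element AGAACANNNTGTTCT occurred in none of the 8 and in 0.0365% and 0.00913% of all windows. The E-box CACGTG, bound by clock and Myc-type factors, was present in Klf4, Klf6 and Klf15 (6.02% of all windows). The MEF2 motif, which in the Klf2 promoter is known to carry the response to the ERK5 kinase, was found in Klf2 alone of the 8 and in 2.92% of all windows. TGACG, a part of the cyclic AMP response element TGACGTCA, was present in Klf2, Klf4, Klf9, Klf13 and Klf15 (17.8% of all windows), the full element in none of the 8 (1.55%), and the serum-responsive CArG box in none (1.47%). CCAAT was found in 4 of the 8 (33.9%), CACCC, a sequence that the factors themselves bind, in 6 of the 8 (52.0%) and the GC box GGGCGG in 7 of the 8 (32.7%). These are letter matches in short windows of high GC content, 59.2% to 78.4% in the 8 members against a median of 52.4%, and show neither binding nor its absence.

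Among the members induced by flow and by acute signals, Klf2, first named lung Krüppel-like factor and known for endothelial quiescence, was measured by 1 probe set. It read 7.55, 7.77 and 7.50 in the control-labelled lungs and 6.90, 6.83 and 6.79 in the Cre-labelled lungs. The groups did not overlap, and the gap between them was wider than the range within either. The log2 difference was -0.77 ± 0.13 SE, or 1.70-fold lower.

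Klf4, which restrains proliferation and supports barrier epithelia and endothelium, was lower in both of its probe sets. The brighter read 9.48, 9.39 and 9.01 in the control-labelled and 8.50, 8.70 and 8.74 in the Cre-labelled lungs, a difference of -0.65 ± 0.14 SE. Control-labelled replicate 3 was the lowest of its group and lay 0.28 above the nearest Cre-labelled array. The dimmer read 7.97, 8.06 and 7.37 against 7.07, 7.08 and 6.80, a difference of -0.82 ± 0.19 SE, with the same control array lowest.

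Klf6, a widely expressed early response gene, gave different sizes by probe set. The brightest read 9.34, 8.84 and 8.91 in the control-labelled and 8.67, 8.65 and 8.83 in the Cre-labelled lungs, a difference of -0.31 ± 0.14 SE that was not called; control-labelled replicate 2 and Cre-labelled replicate 3 lay almost together. The next in brightness read 8.90, 8.46 and 8.73 against 7.83, 7.91 and 8.15 (-0.73 ± 0.14 SE), and the third 8.49, 8.21 and 8.53 against 7.72, 7.88 and 7.70 (-0.64 ± 0.12 SE), both without overlap. The fourth had the largest difference of all 30 probe sets, 7.66, 7.39 and 7.88 against 6.82, 5.63 and 5.90 (-1.53 ± 0.28 SE, 2.89-fold lower), and its Cre-labelled arrays spread over more than 1 unit. It was called in 1 of the 6 fits without 1 array, that without Cre-labelled replicate 1, and its difference was -0.97 with 64 added to every linear signal. The dimmest went the other way with overlapping groups, 5.34, 5.40 and 4.66 against 5.31, 5.29 and 5.96 (0.39 ± 0.28 SE). The parts of the transcript that these probe sets match were not analysed here.

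Klf10, the early gene induced by transforming growth factor beta, read 9.18, 9.20 and 9.44 in the control-labelled and 8.77, 8.85 and 8.88 in the Cre-labelled lungs. Its groups did not overlap, and its difference of -0.44 ± 0.10 SE was not called.

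Klf5, which lung epithelium needs for its maturation around birth, read 9.18, 9.14 and 8.94 in the control-labelled and 8.50, 8.49 and 7.84 in the Cre-labelled lungs with its brightest probe set, a difference of -0.81 ± 0.17 SE. The groups were apart, and Cre-labelled replicate 3 was the lowest array by 0.65. The next probe set read 7.42, 6.89 and 7.27 against 7.13, 6.93 and 7.07, with the Cre-labelled arrays inside the control range and a difference of -0.15 ± 0.16 SE. The mean over both was -0.48.

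Klf15, a regulator of amino acid and glucose use that glucocorticoids induce, had the largest difference among the brightest probe sets. It read 8.27, 8.06 and 8.46 in the control-labelled and 7.16, 7.43 and 6.86 in the Cre-labelled lungs. The lowest control-labelled array was 0.62 above the highest Cre-labelled one, and the log2 difference was -1.11 ± 0.17 SE, 2.16-fold lower.

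Klf9, a hormone-responsive gene that glucocorticoid and thyroid hormone both raise, was measured by 7 probe sets. The brightest read 10.25, 10.18 and 10.57 in the control-labelled and 9.76, 9.88 and 9.88 in the Cre-labelled lungs, a difference of -0.50 ± 0.12 SE that was not called although the groups were apart. The second read 10.31, 10.05 and 10.37 against 9.56, 9.43 and 9.32 (-0.81 ± 0.12 SE), the third 9.80, 9.64 and 10.29 against 9.13, 8.86 and 9.10 (-0.88 ± 0.16 SE), and the fourth 7.24, 7.13 and 7.18 against 6.50, 6.28 and 6.17 (-0.87 ± 0.14 SE). These 3 were called lower. The second remained so without any 1 of the 6 arrays, the third in 2 and the fourth in 3 of those 6 fits, and the fourth had a difference of -0.54 with 64 added to every linear signal. Another was apart as well (-0.56 ± 0.21 SE, not called), a dim one overlapped (-0.27 ± 0.44 SE), and the last was too dim to test.

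Klf13, a repressor related to Klf9 and known from lymphocytes, read 9.22, 9.09 and 9.02 in the control-labelled and 8.60, 8.47 and 8.82 in the Cre-labelled lungs with its brightest probe set. The groups were 0.20 apart at their nearest arrays, and the difference of -0.48 ± 0.12 SE was not called. Its other tested probe set overlapped (-0.17 ± 0.21 SE).

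Klf3, a repressor that works through the CtBP corepressors, had no called probe set among 6 tested. Its brightest read 10.24, 10.38 and 10.40 in the control-labelled and 10.13, 10.33 and 10.25 in the Cre-labelled lungs, an overlap with a difference of -0.10 ± 0.10 SE. The other 5 ranged from -0.58 to -0.03, and the last of these changed sign under median centring, with array weights and without Cre-labelled replicate 3. Klf7, known from neuronal development, overlapped in all 4 probe sets. The brightest read 8.01, 7.69 and 7.42 against 7.61, 7.44 and 7.50 (-0.19 ± 0.15 SE), and the others ranged from -0.65 to 0.03.

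The other Krüppel-like and Sp family genes, which bind similar sites, were not among the chosen genes and were tested in the same fit. Of 16, 13 were matched to a probe set and 11 were bright enough to test. None was called in either direction (limma), and Sp7 alone had an unadjusted p under 0.05 (log2 difference -1.0 ± 0.40 SE, limma adjusted p = 0.21). Its probe set was dim, with a mean of 4.55, and its difference was -0.27 with 64 added to every linear signal. Of the 11, 9 had a higher and 2 a lower mean in the Cre-labelled lungs, with a median log2 difference of 0.17. Klf12, a CtBP-dependent repressor like Klf3, read 7.83, 7.72 and 7.12 in the control-labelled and 8.06, 7.87 and 7.89 in the Cre-labelled lungs (0.38 ± 0.18 SE, limma adjusted p = 0.28), and Klf11, a relative of Klf10, had a difference of -0.21 ± 0.16 SE (limma adjusted p = 0.52). The general factors Sp1 (0.10 ± 0.12 SE, limma adjusted p = 0.71) and Sp3 (0.28 ± 0.14 SE, limma adjusted p = 0.29) did not pass, nor did Sp4 (0.27 ± 0.13 SE). Signs of the small differences of Klf1, Klf14, Klf16, Sp1 and Sp6 turned in 1 to 4 alternative fits each. Whether the 10 genes and these 11 differ as groups was not tested.

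**Figure D3:**
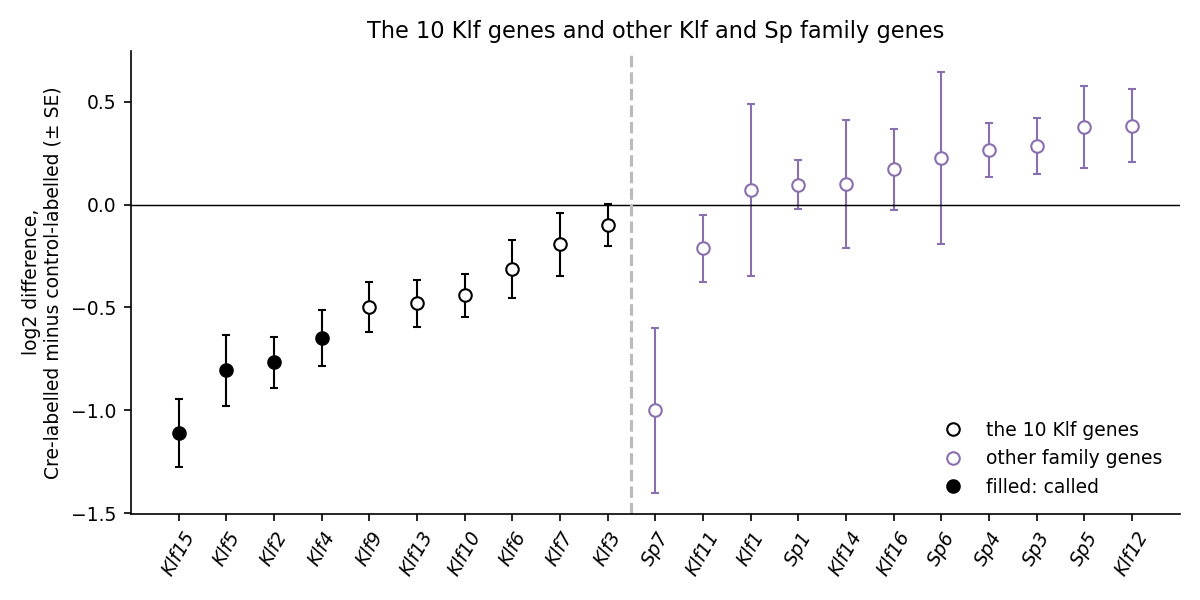
Log2 difference with its SE (vertical axis) for the brightest probe sets of the 10 Krüppel-like factor genes (black) and of 11 other family genes (purple), each sorted by size; filled symbols were called. The 10 run from -1.11 (Klf15) to -0.10 (Klf3) and the others from -1.0 (Sp7, a dim probe set) to 0.38 (Klf12).

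Of 12 cofactors and degradation factors, Wwp1, a ubiquitin ligase that targets Klf2 and Klf5 for breakdown, was the only one called. It read 9.25, 9.25 and 9.36 in the control-labelled and 8.75, 8.75 and 8.76 in the Cre-labelled lungs, without overlap (-0.54 ± 0.09 SE, limma adjusted p = 0.016). It passed in 2 of the 6 fits without 1 array, those without Cre-labelled replicate 2 or 3. The corepressors Ctbp1 (0.28 ± 0.09 SE) and Ctbp2 (0.32 ± 0.12 SE) and the deacetylases Hdac2 (0.33 ± 0.10 SE) and Hdac3 (0.24 ± 0.09 SE) had higher means and did not pass (limma adjusted p 0.11 to 0.17).

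None of 12 genes that act upstream of Klf2 and Klf4, the ERK5 kinase cascade, MEF2 factors and the cerebral cavernous malformation complex, was called (limma), and 1, Mef2a, had an unadjusted p under 0.05 (-0.29 ± 0.10 SE, limma adjusted p = 0.16). None of 10 endothelial genes known to respond to Klf2 or Klf4 was called (limma), and 3 had an unadjusted p under 0.05. These were the sphingosine phosphate receptor gene S1pr1 (-0.60 ± 0.15 SE, limma adjusted p = 0.060), the VEGF receptor gene Kdr (-0.50 ± 0.16 SE, limma adjusted p = 0.12) and the adhesion gene Vcam1 (0.39 ± 0.12 SE, limma adjusted p = 0.11). S1pr1 read 7.80, 7.33 and 7.62 in the control-labelled and 7.02, 7.10 and 6.83 in the Cre-labelled lungs, without overlap.

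Of 6 metabolic genes under Klf15 that could be tested, Pdk4, a kinase that limits glucose oxidation, fell. It read 7.96, 7.22 and 7.30 in the control-labelled and 5.79, 6.05 and 6.06 in the Cre-labelled lungs (-1.53 ± 0.21 SE, 2.88-fold lower, limma adjusted p = 0.0086), and passed without any 1 array. It lost its call with the cardiac mean as a covariate (limma adjusted p = 0.056), and its difference was -0.95 with 64 added to every linear signal. The proline dehydrogenase gene Prodh (-0.14 ± 0.14 SE), Gpt2 (0.36 ± 0.16 SE) and the glucose transporter gene Slc2a4 (0.23 ± 0.21 SE) did not pass. Of 7 factors that share a network with the Krüppel-like factors in fat cell differentiation, Cebpd (-0.85 ± 0.16 SE, limma adjusted p = 0.025), Pparg (-1.12 ± 0.21 SE, limma adjusted p = 0.025) and Cebpa (-0.64 ± 0.14 SE, limma adjusted p = 0.042) fell. Pparg read 5.54, 5.52 and 5.40 against 4.34, 4.49 and 4.28, near the level required for the test, and its difference shrank to -0.36 once 64 had been added to every linear signal. In the 6 fits without 1 array, Cebpd passed in 2 (without control-labelled replicate 1 or Cre-labelled replicate 2), Cebpa in 1 (without Cre-labelled replicate 1) and Pparg in 0. Cebpb (0.07 ± 0.12 SE), Srebf1, Ebf1 and Zfp423 did not pass.

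Of 7 cell cycle genes with known links to Klf4 and Klf6, Odc1, the first enzyme of polyamine synthesis, rose. It read 9.47, 9.45 and 8.94 in the control-labelled and 10.10, 10.06 and 10.26 in the Cre-labelled lungs (0.85 ± 0.15 SE, 1.81-fold higher, limma adjusted p = 0.0185), and it lost its call without Cre-labelled replicate 1 or 3. Cdkn1a, the cell cycle inhibitor gene that Klf4 and Klf6 activate, read 7.49, 7.23 and 7.98 against 6.91, 7.0 and 6.53 (-0.75 ± 0.20 SE, limma adjusted p = 0.079). Of 11 genes of the transforming growth factor beta response with Klf10, none was called by limma and none had an unadjusted p under 0.05; Tgfbr2 was nearest (-0.22 ± 0.10 SE, limma adjusted p = 0.29). The same held for 7 thyroid hormone response genes, with a median of 0.02 and with Dio2 nearest (0.54 ± 0.25 SE, limma adjusted p = 0.27).

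The immediate early and glucocorticoid response genes, to which Klf2, Klf4, Klf6, Klf10, Klf9 and Klf15 are linked by their known regulation, were in part lower, a pattern known from earlier results on these arrays; the lists as such were not tested. Of 17 immediate early genes tested 6 fell and none rose, with a median of -0.40; Fos fell by 1.44 (by 0.95 with 64 added to every linear signal) and Ier3 by 1.05, while Jun (-0.39 ± 0.11 SE), Egr1 (-0.09), Myc (0.28) and Egr3 (0.54 ± 0.19 SE, the 1 gene higher at an unadjusted p under 0.05) did not pass. Of 12 glucocorticoid response genes 7 fell and none rose, with a median of -0.60, among them Per1 (-0.57 ± 0.11 SE, limma adjusted p = 0.023) and Mt1, and the receptor gene Nr3c1 had a difference of -0.02. Of these 7 and 6 calls, which share Dusp1, those of Fos, Dusp1 and Mt1 remained without any 1 array. At an unadjusted p under 0.05, 11 of the 17 immediate early genes were lower and 1 higher. Of the 12 glucocorticoid response genes 10 were lower and none higher at that level.

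Markers of other cell types moved with the group too, and their part in the differences of the Krüppel-like factor genes was not tested. In whole lung, fewer cells of a type and less RNA per cell cannot be told apart. Of 14 endothelial markers, the main setting of Klf2, 12 had a lower mean and 1, Car4, was called (-2.14 ± 0.22 SE, limma adjusted p = 0.0039); their summed linear signal was 13005 to 14762 in the control-labelled and 9474 to 11770 in the Cre-labelled lungs. At an unadjusted p under 0.05, 9 of the 14 were lower and none higher, and the list's median was -0.42. The junction gene Pecam1 differed by -0.43 ± 0.13 SE, Ramp2 by -0.59 ± 0.14 SE and Emcn by -0.59 ± 0.15 SE, whereas Cdh5 differed by -0.17 and Tie1 by -0.10, and none of these 5 was called. Car4 was dim in the Cre-labelled lungs (mean 4.65), and its difference was -0.97 with 64 added to every linear signal. Of 8 general epithelial markers, beside Klf5, 7 had a lower mean and none was called (limma; 2 at an unadjusted p under 0.05, 1 in each direction), with a sum of 10081 to 12077 against 9286 to 10541. Of 10 alveolar type I markers 5 fell and 1, Igfbp2, rose (sum 20106 to 30137 against 15894 to 17341). Of 9 alveolar type II markers 4 fell (21530 to 36202 against 18333 to 20108), and of 8 airway markers 3 fell (14070 to 22638 against 12030 to 14268). At an unadjusted p under 0.05, 7 type I markers were lower and 1 higher, and 6 airway markers were lower and none higher. Of type II, 7 were lower at that level and 1, Etv5, was higher (0.41 ± 0.13 SE, not called). Sftpc overlapped between the groups (-0.07 ± 0.30 SE). In the 6 fits without 1 array, the called type I markers passed in 2 to 6. Those of type II passed in 1 to 5 and those of the airway in 1 to 5.

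Of 10 immune markers 2 fell, Lyz2 and S100a8 (sum 5814 to 6633 against 3680 to 4176). At an unadjusted p under 0.05, 4 of the 10 were lower and none higher. Lyz2 was the brightest of the 10, with means of 11.79 in the control-labelled and 10.91 in the Cre-labelled lungs, and weighed most in the sum. Among macrophage genes Cd68 differed by -0.34, Cd14 by -0.32, Csf1r by -0.21, C1qa by 0.02 and C1qb by 0.12, none of them called. The lymphocyte markers Cd3e and Cd79a, relevant to Klf2 and Klf13, were too dim to test. Of 6 mesothelial markers 2 fell, Msln and Krt19, and of 7 pericyte markers 1, Higd1b. Msln passed in 6, Krt19 in 1 and Higd1b in 2 of the 6 fits without 1 array. Of 10 mesenchymal markers 1 rose, Wnt2, which passed without any 1 array. At an unadjusted p under 0.05, 2 of the 10 were lower and 1 higher. The lower ones were Pdgfra (-0.33 ± 0.14 SE) and Tcf21 (-0.32 ± 0.14 SE), neither of them called. None of 8 smooth muscle markers was called by limma (2 higher at an unadjusted p under 0.05). None of 11 cardiac, 5 skeletal muscle and 2 erythroid markers was called by limma, with 8, 1 and 1 lower at an unadjusted p under 0.05. All 11 cardiac markers had a lower mean, with a sum of 3389 to 13442 against 1986 to 5163, and the skeletal muscle markers averaged 9.36 in control-labelled replicate 1 and 5.20 to 6.14 on the other arrays. With the cardiac mean as a covariate, Klf15 alone of the 10 was called by its brightest probe set, and Klf3, Klf6, Klf9 and Klf15 by any probe set. The brightest probe sets of Klf2 and Klf5 lost the call at differences of -0.78 and -0.96, and that of Klf4 at -0.39. Those of Klf9 and Klf6, not called before, had -0.58 and -0.10. As a sign of RNA quality, the 3′ minus 5′ log2 signal of the Actb control probe sets was 0.35 to 0.52 in the control-labelled and 0.41 to 0.83 in the Cre-labelled lungs, the highest in Cre-labelled replicate 3. That of Gapdh was -0.20 to -0.05 with control labels and -0.34, -0.32 and 0.07 with Cre labels.

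**Figure D4:**
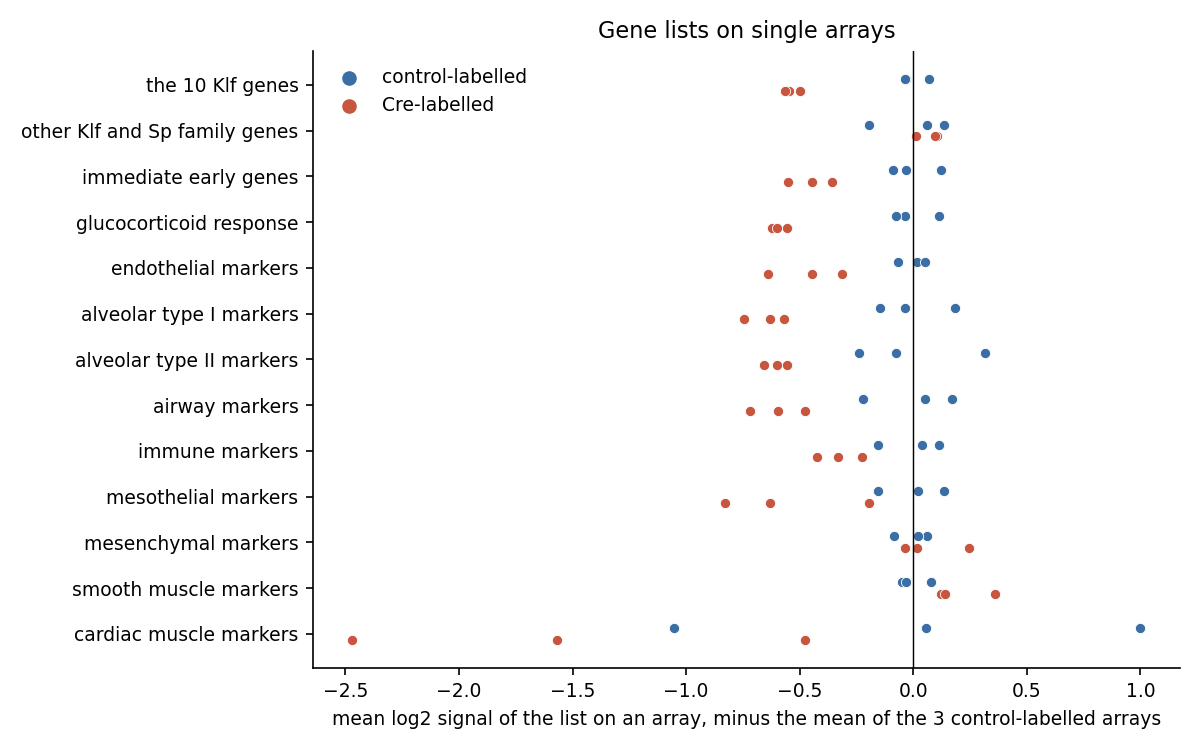
Mean log2 signal of a gene list on each array minus the mean of the control-labelled arrays (horizontal axis) for the 10 Krüppel-like factor genes and 12 other lists (rows); points are arrays. On the single arrays the 10 genes averaged 9.07, 8.97 and 8.97 in the control-labelled and 8.46, 8.51 and 8.44 in the Cre-labelled lungs. The mean signals of cardiac muscle markers ran from 7.53 to 9.58 in the control-labelled and from 6.11 to 8.10 in the Cre-labelled lungs.

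For each called member the 3 genes outside the family with the most similar profile over the 6 arrays were taken by Pearson's r, a description of arrays that include both groups. For Klf2 they were Tmem80, Slc25a28 and Rsph4a (r = 0.995, 0.994 and 0.994), among 121 genes with r above 0.95. For Klf4 they were Lamc3, Pdlim3 and the immediate early gene Jun (0.996, 0.992 and 0.990), for Klf5 Tinagl1, Rtkn and Trafd1 (0.998, 0.998 and 0.995), and for Klf15 Tacc1, Pard6b and Oplah (0.996, 0.996 and 0.995). The number of genes above 0.95 was 59 for Klf4, 170 for Klf5 and 273 for Klf15, out of 12826 tested genes, and all share the same arrays and scaling.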

How the data were processed

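Signals of 6 arrays were used as deposited. The authors' values are log2 signals. On the linear scale each array had a trimmed mean (2% removed from either tail) of 150.04 to 150.05. Per the submitters' processing notes, MAS5 and affy were used, with no versions; further steps are not given in the sources used here. Of 45101 probe sets, 64 controls were left out, and the 27022 with an average of at least the 40th percentile (a log2 signal of 4.0) entered limma (version 3.58.1, R 4.3.3), using lmFit and eBayes with trend, no covariate, two-sided p-values and Benjamini-Hochberg adjustment over all of them. Genes come from the platform annotation (34945 probe sets with 1 symbol, 932 with several, 9160 with none; only the first were named), updated by gene identifier for 34741 through a RefSeq table (GRCm38.p6). A gene was represented by its brightest probe set, averaged over the 6 arrays.

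The members and 24 gene lists were chosen with earlier results of these data known, and the motifs after the sequences were seen; 237 of 249 list entries were matched, and the other 12 were not analysed here. Named were all members, every gene past the threshold in the lists the text describes gene by gene, some further list genes, mostly those with the smallest unadjusted p, and the 3 nearest profiles of called members. Alternatives were quantile normalization, median centring, offsets of 1 and 64, array weights, a model without the intensity trend, the cardiac mean as a covariate, a block for replicate number, dropping the filter or raising it to the 60th percentile, averaging each gene's probe sets, and leaving out each array. The fit was tested on simulated data. P-values set the difference between the groups against the spread within them, and 3 arrays per group limit the precision. Plots used Python 3.11.15 with matplotlib 3.10.9.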

Additional observations from a re-analysis of the deposited data

How the results depend on the processing

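Of the 10 genes, 4 were called in the fit described. The count was 7 with quantile normalization (then also Klf9, Klf10 and Klf13) and with the filter at the 60th percentile. It was 2 with median centring and with no filter (Klf2 and Klf15), and 1 with the cardiac mean as a covariate. With no intensity trend it was 0 (limma), and 1 Klf9 probe set other than the brightest was called. In that fit 7 of the 10 had an unadjusted p under 0.05. The share of all genes at that level was not counted, and the 10 were chosen by these values. Without 1 array the count was 1 to 4. It was 6 with an offset of 64 and with array weights, and 4 with an offset of 1. No called member changed sign, and the differences of the 10 brightest probe sets were negative in each of the 16 alternative fits. The filter settings, the fit with no intensity trend and the replicate block cannot change a difference, only its p-value. The other fits reuse the arrays by which the 10 were chosen, so the shared sign is a description only. The mean of all tested probe sets of a gene was -0.57 for Klf6 and -0.35 for Klf3, against -0.31 and -0.10 for the brightest. Over the whole array 963 probe sets were called, 1270 with quantile normalization, 1199 of 18015 tested with the filter at the 60th percentile, 647 with median centring, 697 with no filter, 1097 with an offset of 64, 1155 with array weights, 171 with no intensity trend, 376 with the cardiac mean as a covariate and 308 to 499 without 1 array. None of the 11 other family genes was called in any alternative in which it was tested; Klf1, Klf14, Sp5, Sp6 and Sp7 were too dim for the filter at the 60th percentile. With the replicate number as a block (replicate block), 1309 probe sets and 6 of the 10 genes were called; same-numbered arrays did not deviate together throughout (r = -0.01, 0.20 and 0.14), and control-labelled replicate 1 was nearest to Cre-labelled replicate 2, so the numbers were not taken as pairs. Probe sets near the filter level can be noisy. MAS5 subtracts a background, and its part in that noise was not tested.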
